A study of Rattus norvegicus with 6 samples.

Results

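The genes described are 8 genes of the extracellular matrix that fibroblasts make in quantity: Col1a1, Col1a2, Col3a1, Fn1, Sparc, Dcn, Bgn and Mgp. Every probe set whose platform annotation names exactly 1 gene, that gene being on this list, was taken, which gave 23 of the 8799 probe sets on the array, for 8 of the 4736 genes that such probe sets name. They were measured in whole hippocampus of Syracuse High Avoidance (SHA) and Syracuse Low Avoidance (SLA) rats. These are selected lines that differ in learning to cross a box on a signal and so avoid a shock. Each line had 3 pools of 3 rats with 1 array per pool, and rats of both lines had been through that testing 2 weeks before the tissue was taken. No untested rats were measured, so line and response to testing cannot be told apart. The labels give neither the age nor the sex of the rats and do not state that the pools hold different rats, so the p-values measure only the spread between these pools.

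Fibrillar collagens form the fibres of connective tissue, and their chains are wound into triple helices before they are secreted. Fibronectin, the small proteoglycans decorin and biglycan, and the collagen-binding protein encoded by Sparc attach to these fibres or to the cells around them. In brain, collagen-producing fibroblasts lie in the meninges and around larger vessels, whereas Sparc is also made by glia and endothelial cells. In whole hippocampus, fewer cells of a type and less RNA per cell cannot be told apart.

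No matrix gene was called different between the lines. The number of probe sets past the threshold (limma, Benjamini-Hochberg adjusted p under 0.05 over 6555 probe sets) was 0 of the 19 matrix probe sets tested and 0% of all probe sets tested. At an unadjusted p under 0.05 it was 0 of 19, against 1.5% of all probe sets, and with the pool number as a block it was again 0 of 19, against 5.26%. Of the 19, 10 were higher and 9 lower in SHA, with a median log2 difference (SHA minus SLA) of 0.02, where the median over all 6555 was -0.01. The lowest unadjusted p among them was 0.21, and limma's unblocked adjusted p was 1.00 for each of the 19. A further 4 of the 23 were among the dimmest 25% of probe sets and were not tested: X70369_s_at of Col3a1, X05831cds_at of Fn1, and rc_AI639233_s_at and X59859_r_at of Dcn.

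**Figure D1:**
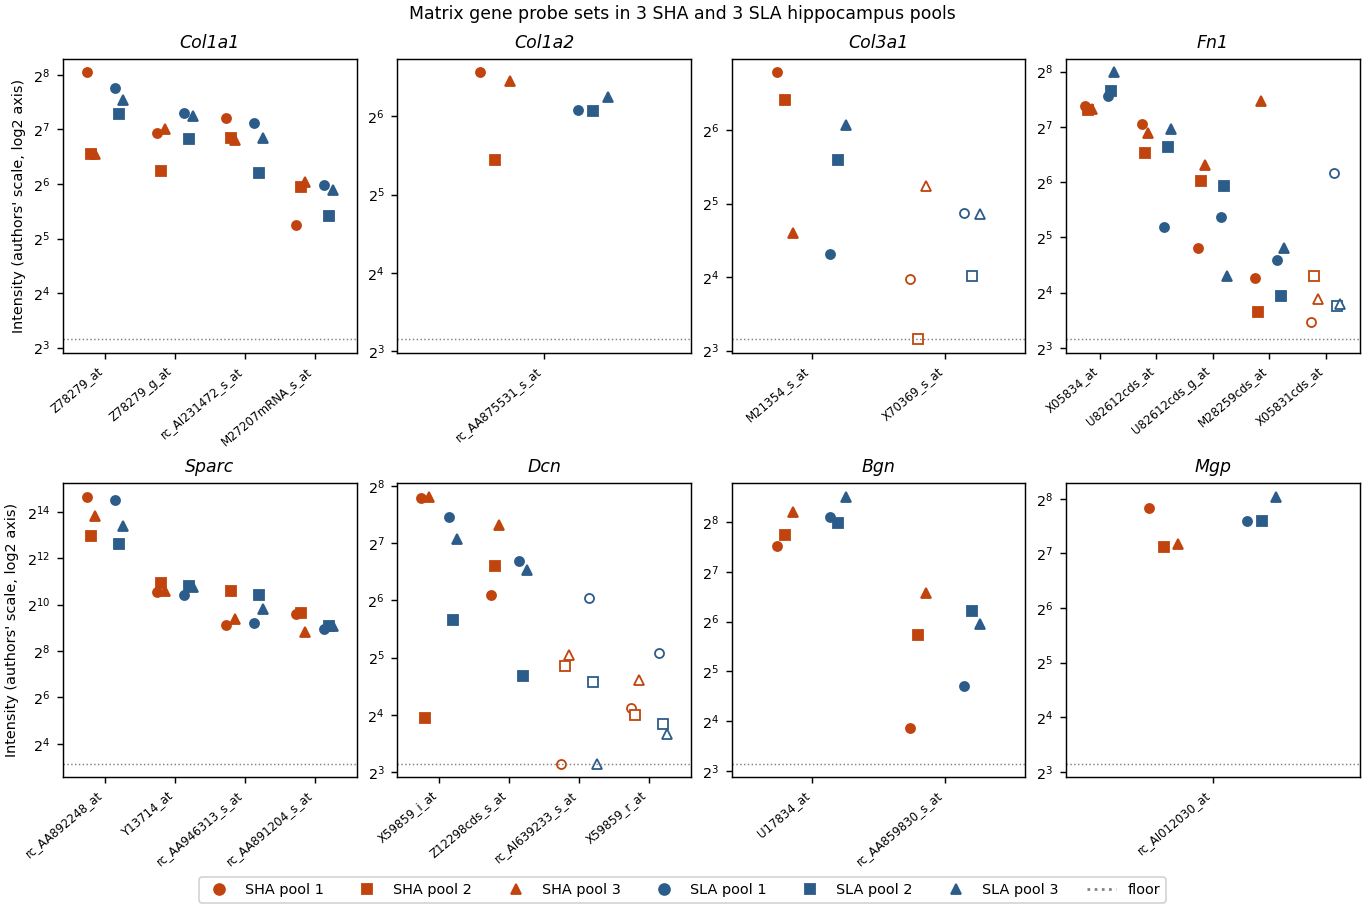
Intensity on a log2 axis of each of the 23 matrix probe sets, by gene, with SHA pools in red left of SLA pools in blue; the marker shape gives the pool number, open markers are the 4 probe sets not tested, and the dotted line is the floor of 8.9. The lines overlap for every probe set except X05834_at of Fn1.

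Intensities are the authors' linear values, given for pools 1, 2 and 3 of each line in turn. Differences are on the log2 scale after values below a floor of 8.9 were raised to it, with the standard error from limma and n = 3 pools per line. Each probe set has its own brightness, so levels are compared between pools and not between probe sets.

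Type I collagen, the main fibrillar collagen, is built from the chains encoded by Col1a1 and Col1a2. Probe set Z78279_at of Col1a1 read 264.1, 93.6 and 93.3 in the SHA pools, against 215.7, 154.9 and 187.0 in the SLA pools. SHA pool 1 held the highest of the 6 values and the other SHA pools the lowest, so the lines overlapped, with a difference of -0.48 ± 0.45 (95% interval -1.50 to 0.54). Z78279_g_at, designed to the same sequence entry, read 122.4, 75.7 and 128.8 in SHA and 157.4, 113.3 and 152.1 in SLA, a difference of -0.39 ± 0.38. It was lower in SHA within all 3 pool numbers, but the lines overlapped and the 95% interval ran from -1.26 to 0.47.

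The other Col1a1 probe sets differed less between the lines. rc_AI231472_s_at read 148.5, 114.6 and 112.1 in SHA, against 138.5, 73.4 and 115.4 in SLA (0.23 ± 0.40). M27207mRNA_s_at averaged 54.8 ± 14.9 in SHA and 54.9 ± 10.9 in SLA (SD, n = 3 each), a difference of -0.02 ± 0.51. Between the 4 probe sets of Col1a1, correlations of log2 intensity over the 6 pools ran from -0.56 to 0.59, described over arrays that also share a pool number in pairs. The probe sets of this 1 gene thus did not follow one another from pool to pool.

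Col1a2 had 1 probe set, rc_AA875531_s_at, which read 94.4, 43.5 and 87.3 in SHA pools and 67.7, 67.0 and 76.2 in SLA pools. The SHA pools lay on both sides of the SLA pools, and the difference was 0.02 ± 0.48 (95% interval -1.07 to 1.10). Its sign turned without both pools numbered 1, at -0.21. Col3a1, the chain of type III collagen found with type I in vessel walls, read 110.2, 85.2 and 24.2 in SHA on M21354_s_at, against 19.9, 48.4 and 67.4 in SLA. The difference was 0.60 ± 0.74, with SHA pools 1 and 2 above every SLA pool and SHA pool 3 below 2 of them. Within the pool numbers 1, 2 and 3 it was 2.47, 0.82 and -1.48, and it was -0.33 without both pools numbered 1. Leaving out single pools moved it to 0.095 (SLA pool 1), 0.18 (SHA pool 1) or 1.27 (SHA pool 3). The dim probe set X70369_s_at of Col3a1 read 15.7, 8.7 and 37.6 in SHA and 29.4, 16.2 and 29.1 in SLA, and it went opposite to M21354_s_at over the pools (r = -0.71, 6 pools).

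Fibronectin, encoded by Fn1, links matrix fibres to integrins at the cell surface and is also abundant in plasma. Its brightest probe set X05834_at read 166.2, 157.2 and 160.3 in SHA, against 189.1, 199.6 and 253.5 in SLA. All SHA pools lay below all SLA pools, which held for 1 of the 19 matrix probe sets tested and for 5.66% of all probe sets tested, so the share among the matrix probe sets was close to that of the array. The difference was -0.40 ± 0.29 (95% interval -1.06 to 0.26, unadjusted p = 0.21 in limma), and it did not pass the test. Within the pool numbers 1, 2 and 3 it was -0.19, -0.34 and -0.66.

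The remaining Fn1 probe sets had a positive difference where tested. U82612cds_at read 132.5, 91.9 and 118.6 in SHA, against 36.2, 99.9 and 124.9 in SLA (0.56 ± 0.53), and U82612cds_g_at differed by 0.51 ± 0.67. SLA pool 1 gave the 1 low value of U82612cds_at, and the difference was 0.02 without that pool. The difference of U82612cds_g_at was 0.065 without SLA pool 3 and 0.96 without SHA pool 1. M28259cds_at read 19.2, 12.6 and 177.2 in SHA, against 24.1, 15.4 and 28.0 in SLA (0.68 ± 1.00). SHA pool 3 alone stood high, and without that pool the difference was -0.49. The dim X05831cds_at read between 11 and 19.8 in SHA and between 13.5 and 71.3 in SLA. Correlations among the 4 tested probe sets of Fn1 ran from -0.67 to 0.30, so a direction for Fn1 as a gene cannot be read from them.

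Sparc, a secreted glycoprotein that binds collagen and modulates cell adhesion, had 4 probe sets, which were tested. rc_AA892248_at read 25749.8, 7981.0 and 14362.2 in the SHA pools, against 23082.7, 6240.3 and 10798.6 in the SLA pools. It was higher in SHA within each of the 3 pool numbers, by 0.16, 0.35 and 0.41, but the pools numbered 1 were more than 3-fold above those numbered 2 in both lines. The difference was 0.31 ± 0.56 without the block and 0.31 ± 0.14 with the pool number as a block (unadjusted p = 0.063, adjusted p = 0.83, limma). This was the lowest unadjusted p of any matrix probe set in the blocked fit.

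The other Sparc probe sets did not share this order of pools. Y13714_at read 1508.4, 1941.2 and 1525.7 in SHA, against 1350.3, 1807.3 and 1747.0 in SLA, a difference of 0.02 ± 0.23 with a 95% interval of -0.50 to 0.55. rc_AA946313_s_at read 557.2, 1544.6 and 670.8 in SHA, against 597.5, 1352.2 and 895.3 in SLA (-0.11 ± 0.42). On both of these the pools numbered 2 were the highest of each line, where rc_AA892248_at had its lowest values, and rc_AA892248_at correlated with them at r = -0.89 and -0.94 over the 6 pools. rc_AA891204_s_at read 778.6, 801.3 and 446.1 in SHA, against 501.3, 549.0 and 534.1 in SLA (0.31 ± 0.28), with SHA pool 3 below every SLA pool.

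Array controls moved with these pool differences. Control probe sets on the array that read the opposite strand of Gapdh and of beta-actin had a geometric mean of 1352, 30.1 and 365 in SHA pools 1, 2 and 3, against 1432, 21.3 and 219 in SLA pools 1, 2 and 3. Over the 6 pools the log2 of this mean correlated with rc_AA892248_at at r = 0.98, with Y13714_at at -0.91, with rc_AA946313_s_at at -0.97 and with rc_AA891204_s_at at -0.18. Among all 6555 probe sets tested, 5.78% had an r of 0.9 or more and 4.56% an r of -0.9 or less. Of the 19 matrix probe sets, those beyond 0.9 in either direction were the first 3 of Sparc. Controls added to the samples had a geometric mean of 5458, 1121 and 2279 in SHA pools 1, 2 and 3. In SLA pools 1, 2 and 3 it was 12282, 640 and 1564, so these too were highest in number 1 and lowest in number 2. The part of these array differences in the Sparc values was not tested, and probe sequences were not used here, so whether rc_AA892248_at reads the Sparc transcript was not tested either.

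**Figure D2:**
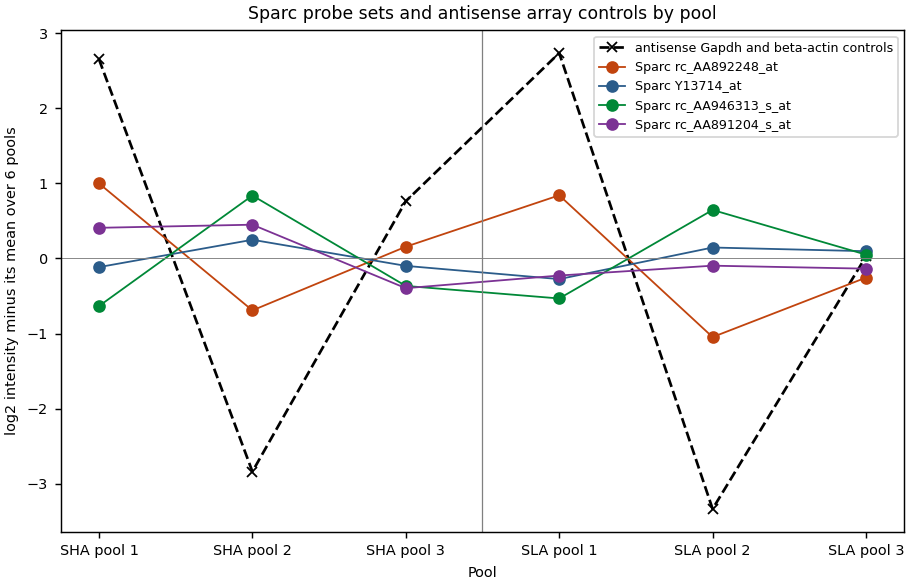
Log2 intensity of the 4 Sparc probe sets and of the antisense control probe sets for Gapdh and beta-actin in each pool, each minus its own mean over the 6 pools, with SHA pools left of SLA pools. The controls and rc_AA892248_at were highest in the pools numbered 1 and lowest in those numbered 2, while rc_AA946313_s_at went the opposite way.

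Decorin and biglycan, encoded by Dcn and Bgn, are small leucine-rich proteoglycans that bind collagen fibrils. Dcn on X59859_i_at read 220.7, 15.5 and 224.3 in SHA, against 176.0, 50.5 and 134.5 in SLA (-0.21 ± 0.98). The pools numbered 2 were lowest in both lines, and without SHA pool 2 the difference was 1.07. On Z12298cds_s_at, Dcn read 68.4, 97.5 and 159.0 in SHA, against 102.6, 25.7 and 92.0 in SLA, the highest difference among the matrix probe sets at 0.71 ± 0.62 (95% interval -0.69 to 2.11). Without SLA pool 2, its lowest value, the difference was 0.07. The lines overlapped on both, and the pair correlated at 0.31 over the 6 pools. The dim rc_AI639233_s_at had SHA pool 1 and SLA pool 3 under the floor, at 1.7 and 3.9, and X59859_r_at averaged 19.3 ± 4.56 in SHA and 20.3 ± 11.8 in SLA.

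Bgn on U17834_at read 184.4, 214.0 and 295.7 in SHA pools, against 272.7, 252.2 and 364.0 in SLA pools. It was lower in SHA within all 3 pool numbers, with differences of -0.56, -0.24 and -0.30, although SHA pool 3 lay above 2 SLA pools. The difference was -0.37 ± 0.30 unblocked and -0.37 ± 0.20 with the block (adjusted p = 0.83, limma). The second probe set, rc_AA859830_s_at, read 14.5, 53.2 and 95.7 in SHA and 26.0, 73.9 and 61.8 in SLA (-0.23 ± 0.79). Mgp encodes matrix Gla protein, an inhibitor of calcification made by vascular smooth muscle and cartilage. Its 1 probe set, rc_AI012030_at, read 228.4, 138.5 and 143.9 in SHA, against 193.0, 192.7 and 262.7 in SLA. The difference was -0.37 ± 0.33 (95% interval -1.11 to 0.38), with SHA pool 1 above 2 SLA pools and the other SHA pools below all of them.

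**Figure D3:**
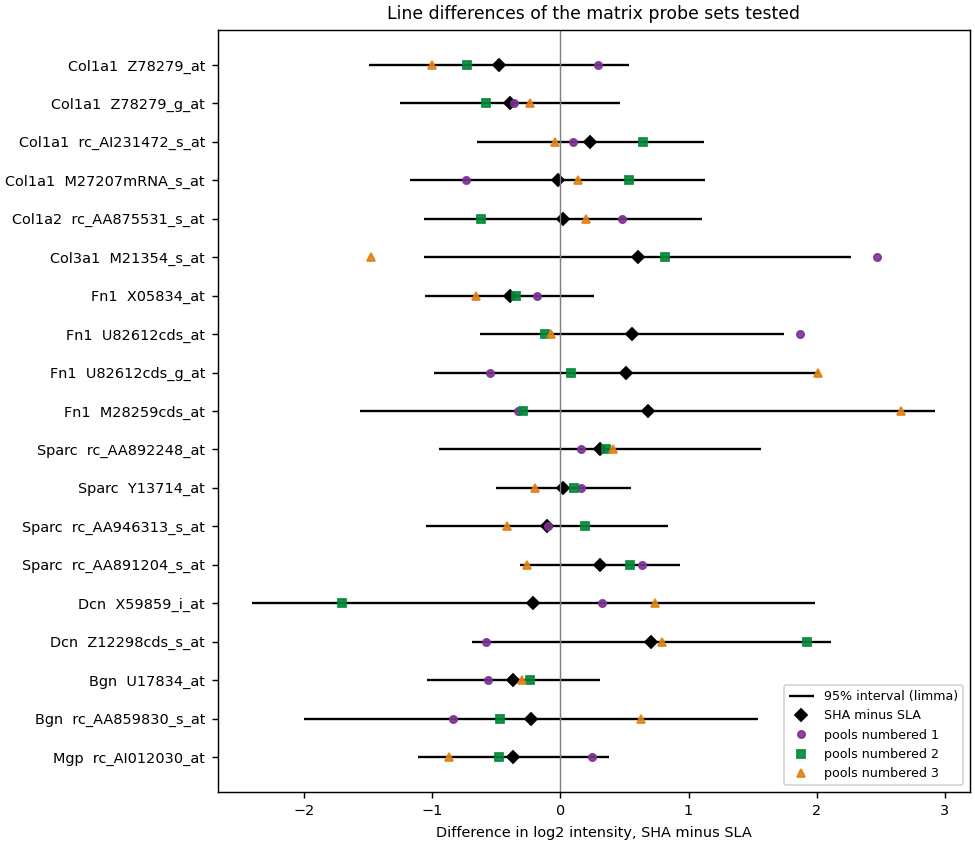
Difference in log2 intensity, SHA minus SLA, of the 19 matrix probe sets tested (black diamonds) with limma's 95% interval (bars), and the differences between pools sharing the number 1, 2 or 3 (coloured markers). Every interval includes 0, and for 15 probe sets the 3 pool numbers did not give the same sign.

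The precision of these comparisons differed between probe sets. Standard errors on the log2 scale ran from 0.23 to 1.00 with a median of 0.48, against a median of 0.44 over all probe sets tested. For 14 of the 19 the 95% interval lay within a 4-fold difference in either direction, and for 2 of the 19, Y13714_at and rc_AA891204_s_at of Sparc, within a 2-fold difference. The sign was the same within all 3 pool numbers for 4 of the 19, with rc_AA892248_at of Sparc higher and X05834_at of Fn1, Z78279_g_at of Col1a1 and U17834_at of Bgn lower in SHA.

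Taking the brightest tested probe set of each gene, 3 genes were higher (Col1a2, Col3a1 and Sparc) and 5 lower in SHA, with a median of -0.29. Sparc stands here for rc_AA892248_at, the probe set that moved with the antisense controls, and with Y13714_at in its place the counts and the median were the same. Over the 6 pools these 8 probe sets correlated with one another at a median r of 0.27 over 28 pairs, with 21 pairs above 0, and at 0.17 with 19 pairs above 0 when Y13714_at stood for Sparc. Col1a2 with Dcn on X59859_i_at gave the highest value at 0.92, followed by Col1a1 on Z78279_at with Mgp at 0.85. Col1a1 and Col1a2, chains of the same molecule, gave 0.49, and Col3a1 with Bgn gave the lowest value at -0.50. The arrays share pool-number differences, so these values describe the pools and carry no test.

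The mean of the 8, each centred on its own mean, was 0.52, -0.62 and -0.07 in SHA pools 1, 2 and 3 and 0.11, -0.25 and 0.31 in SLA pools 1, 2 and 3. SHA pool 1 thus stood highest and SHA pool 2 lowest, with the SLA pools between them. Of 5363 other probe sets with 1 gene, the genes whose log2 values followed this mean most closely over the 6 pools were Sec61b (r = 0.98), Prm2 (0.98), Chchd1 (0.97), Vdr (0.97), Rnh1 (0.96), Ywhae (0.96), Erbb2 (0.96) and C2cd4b (0.96). None of them is a matrix gene, and their line differences lay between -0.36 and -0.04. With Y13714_at for Sparc, 0 of these 8 were among the 8 closest genes, so the names rest on which Sparc probe set is used.

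Other genes of the matrix were read from 6 lists, each gene by its brightest tested probe set. Of 72 distinct genes tested, 28 were higher and 44 lower in SHA with a median of -0.06, where 51.9% of all probe sets tested were lower. Of the 72, 0 passed limma's test at an adjusted or at an unadjusted p under 0.05. With the pool number as a block, 1 of the 72 had an unadjusted p under 0.05 (1.39%, against 5.26% of all probe sets). This was the receptor syndecan 4 (Sdc4) on S61868_g_at, at -0.41 ± 0.13 (adjusted p = 0.83, limma). Its other probe set S61868_at, nearly as bright, differed by 0.02 ± 0.16 in the same fit (unadjusted p = 0.93, limma). The list of other collagens, fibrillar and of further types, had 4 of 6 higher (median 0.07). Basement membrane components had 5 of 7 lower (-0.06), and the enzymes and chaperones that process collagen 6 of 10 lower (-0.01). Further matrix proteoglycans and glycoproteins had 8 of 15 higher (0.03). Matrix proteases and their inhibitors had 14 of 18 lower (-0.16), and integrins and other matrix receptors 10 of 16 lower (-0.05). Too dim to be tested were 3 other collagens, 3 basement membrane genes, 9 proteoglycans and glycoproteins, 4 proteases and inhibitors and 1 receptor.

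Markers of the cells that make these proteins were read in the same way. Meningeal fibroblast markers had 8 of 11 lower in SHA (median -0.10), and their summed intensity was 6897 to 8593 in SHA pools against 8091 to 8814 in SLA pools. Thy1, which neurons also express, made up 63.3% to 71.1% of this sum, and without it the sums were 2125 to 2581 in SHA pools and 2418 to 3239 in SLA pools. Pdgfra, a receptor that marks fibroblasts but also oligodendrocyte precursors, read 307.9, 371.9 and 257.1 in SHA, against 333.9, 277.6 and 286.9 in SLA on its brightest probe set. The differences of its 3 probe sets were 0.05, 1.20 and -0.15, each with an adjusted p of 1.00 in limma, so they did not go together. On their brightest probe sets Thy1, Igfbp2, Cp and Igf2 were -0.05, -0.09, -0.22 and -0.10. Other tested probe sets gave 0.24 for Thy1, 0.54 for Igfbp2, 0.03 for Cp, and 0.03 and 0.29 for Igf2. The signs of these genes thus depend on the probe set read. Of the meningeal list, 4 of the 15 genes on the array were too dim to be tested.

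Mural cell markers, which mark smooth muscle cells and pericytes, had 9 of 12 lower (median -0.35). Their summed intensity was 1743 to 2821 in SHA pools, against 2868 to 3253 in SLA pools. The sums stayed apart when any of 6 of the 12 genes was left out, and overlapped when any of the others was. Tpm1 and Myl9 were among the latter. Tpm1, the brightest of the list by mean log2, read 1461.6, 694.6 and 1428.8 in SHA, against 1589.9, 950.6 and 1539.2 in SLA. Myl9 read 1108.1 in SLA pool 2 and 23.1 to 234.9 in the other pools. Without Myl9 the sums were 1612 to 2637 in SHA pools and 2145 to 3046 in SLA pools. On their brightest probe sets, 3 mural markers had a positive difference, and none passed the test. These were the smooth muscle actin Acta2 (0.69), the potassium channel Kcnj8 (0.50) and the actin-binding Tagln (0.38). Another probe set gave 1.28 for Acta2, -0.19 for Tagln and 0.39 for Myl9, which was -0.34 on its brightest. Tpm1 was -0.23 on its brightest probe set and 0.22, -0.28, 0.24 and 0.18 on its others. Abcc9 was -0.33 on its brightest and 0.02 on its other. The signs of Tagln, Myl9, Tpm1 and Abcc9 thus depend on the probe set read. Pdgfra, Thy1, Igfbp2, Igf2, Cp and these mural markers were picked out after their values were seen. Endothelial markers had 7 of 13 higher (0.15), choroid plexus markers 4 of 5 lower (-0.18), and astrocyte markers 6 of 9 higher (0.03). Markers of hippocampal neurons had 10 of 11 higher (0.27).

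Microglia markers had 9 of 9 lower on their brightest probe sets (median -0.40). The summed intensity of these was 1372 to 1627 in SHA and 1690 to 2287 in SLA. Other tested probe sets of these genes gave 0.55 and -0.38 for Aif1, 0.05 for Cd14 and -0.32 for C1qb. The sums stayed apart when any of 6 of the 9 genes was left out, and overlapped when any of the other 3 was. Among the 141 distinct genes of all lists, 2 had an unadjusted p under 0.05 in limma, against 1.5% of all probe sets. These were C1qb and Vim, with differences of -0.61 ± 0.26 and -1.10 ± 0.35 and an adjusted p of 1.00. With the pool number as a block it was 7 of the 141 on their brightest probe set (4.96%, against 5.26% of all probe sets). The 7 were C1qb, Vim, Sdc4, Slc1a3, Snap25, Calb1 and Gad1, with a lowest adjusted p of 0.70. Vim, an intermediate filament of astrocytes, is also made by fibroblasts and endothelium. The part of these cell types in the matrix values was not tested. As a check of the tissue, 10 of the 11 neuron markers lay above the array's median intensity in all 6 pools.

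**Figure D4:**
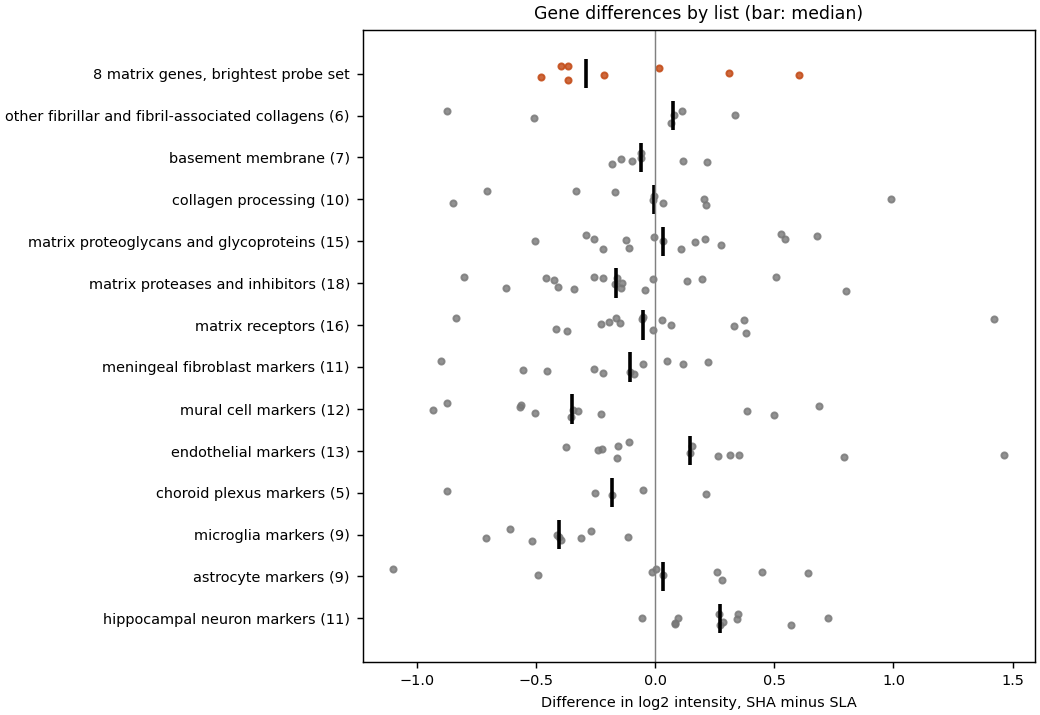
Difference in log2 intensity, SHA minus SLA, of single genes (points) in the 8 matrix genes and in 13 lists, with the number of genes tested in brackets and the median as a black bar. The 8 matrix genes spread from -0.48 to 0.60, and the medians of the lists run from -0.40 for microglia markers to 0.27 for neuron markers, with no gene past the adjusted threshold.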

How the data were processed

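Total RNA from hippocampus was hybridised to 6 one-colour oligonucleotide arrays. Per the deposited table, the values are linear intensities, 1 for each probe set on each array, and the authors had scaled them: the 2%-trimmed mean lies between 250.3 and 250.4 on every array. The software is not stated in the labels, scanner values were not used here, and precision is limited by the number of arrays. Of 8799 probe sets, 59 array controls were set aside. Values under the 10th percentile, 8.9, were raised to it before log2 was taken, and the dimmest 25% of probe sets by mean was left out. The lines were compared in limma 3.58.1 (R 4.3.3, intensity trend, two-sided), adjusted over 6555 probe sets at 0.05. Genes were named by the platform annotation, updated by gene number through RefSeq's GRCr8 table (6985 of 7006 probe sets with 1 symbol matched; 308 had several and 1426 none listed).

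The members and lists were chosen with earlier results of these data known. Named genes are all members, up to 4 genes per list with an unadjusted p under 0.05, and the 8 genes most correlated with the members' mean. Pdgfra, Thy1, Igfbp2, Igf2, Cp, Myl9, Tpm1, Abcc9, Acta2, Kcnj8, Tagln, Aif1, Cd14 and the list genes named for the blocked fit fall outside this rule. They were named after their values were seen. Same-numbered pools deviated together from their line means (r = 0.44, 0.68 and 0.13 for the numbers 1, 2 and 3), so a fit with the number as a block is given beside the unblocked one that the lines are compared with. This pairing comes from the data and not from a label, and SHA pool 3 had a higher r with SLA pool 1, at 0.16. A simulation of the unblocked comparison (20 draws, 200 of 6555 probe sets changed) recovered 5.7% of changes of 2-fold, 41% of those of 4-fold and 64.9% of those of 8-fold. Its noise was drawn independently for each probe set and array, without the deviations that same-numbered pools share, so these percentages hold for that setting. The alternatives were other normalizations, filters, floors and variance models, array weights, the block and leaving pools out. RNA integrity was read from Gapdh: its 3' probe set exceeded its 5' one by 0.20 ± 0.13 (log2) in the SHA pools and by 0.17 ± 0.23 in the SLA pools (SD, n = 3 each; two-sided exact permutation p = 0.9). For beta-actin this was 0.66 ± 0.11 in the SHA pools and 0.52 ± 0.10 in the SLA pools (n = 3 each, exact permutation p = 0.2). Both had an adjusted p of 1 over 5 array measures, by a test that cannot go below 0.1 with 3 against 3.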

Additional observations from a re-analysis of the deposited data

How the results depend on the processing

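Under 18 alternatives the 19 matrix probe sets gave 335 values, with 0 at an adjusted p under 0.05 and a lowest adjusted p of 0.18, so their count past the threshold was 0 in each, the replicate block included. Over all probe sets the count of 0 became 12 with the replicate block and array weights together and 98 with an unadjusted p under 0.05 as the limit. Against those 98, the unadjusted count was 354 when arrays were weighted, 345 under the replicate block and 871 (13.3%) under both together, and it was 203 without any filter and 63 when only the brighter 50% was tested. Leaving out single pools gave 58 (SLA pool 3) to 154 (SLA pool 2), with 61 for SHA pool 1 and 149 for SHA pool 2. With block and weights 6 of 19 matrix probe sets had an unadjusted p under 0.05: rc_AA892248_at and rc_AA891204_s_at of Sparc and Z12298cds_s_at of Dcn higher, and Z78279_at of Col1a1, X59859_i_at of Dcn and Mgp lower, so Dcn was on both sides. The median difference of 0.02 became -0.16 with the dimmer 50% left out and ran from -0.13 (without SHA pool 3) to 0.16 (without SHA pool 2). The count of matrix probe sets whose pools do not overlap, 1, ran from 1 to 4 when 1 pool was left out (4 for SHA pool 1, 4 for SHA pool 3, 3 for SHA pool 2 and 2 for SLA pool 2, where all probe sets gave 10.9% to 15.7%), and was 6 without both pools numbered 1, where it was 24.1% of all probe sets. Fewer pools make such separation easier. The exchange of the Sparc probe set, the sums without Myl9 or Thy1 and the blocked counts over the lists were chosen after seeing the data.

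The sign turned for 11 of the 19, none past the threshold. When 1 pool was left out, differences ran from -0.028 to 0.43 for Col1a1 rc_AI231472_s_at, -0.20 to 0.23 for Col1a1 M27207mRNA_s_at, -0.19 to 0.37 for Col1a2, -0.49 to 1.42 for Fn1 M28259cds_at, -0.14 to 0.805 for Sparc rc_AA892248_at, -0.11 to 0.10 for Sparc Y13714_at, -0.55 to 0.19 for Sparc rc_AA946313_s_at, -0.86 to 1.07 for Dcn X59859_i_at and -0.82 to 0.54 for Bgn rc_AA859830_s_at. Without both pools numbered 1, values were 0.335 (Col1a1 M27207mRNA_s_at), -0.21 (Col1a2), -0.33 (Col3a1), -0.10 (Fn1 U82612cds_at), -0.046 (Sparc Y13714_at) and 0.078 (Bgn rc_AA859830_s_at). With array weights, values were -0.025 (Col1a2), -0.080 (Col3a1) and -0.084 (Sparc Y13714_at), and with replicate block and weights 0.33 (Col1a1 M27207mRNA_s_at), -0.37 (Col1a2) and 0.063 (Sparc rc_AA946313_s_at). Median centring gave 0.033 for Col1a1 M27207mRNA_s_at, quantile normalization -0.0038 for Sparc Y13714_at, and the floor at the 25th percentile 0.032 for Dcn X59859_i_at and 0.0485 for Bgn rc_AA859830_s_at. The cause was not tested.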
